A study of Mus musculus with 12 samples.

Results

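The regions described here flank promoters: they are stretches of acetylated chromatin that the deposited annotation places between 1 and 3 kb from a transcription start. They number 3871 of the 36387 regions measured, 2222 of them 1 to 2 kb and 1649 of them 2 to 3 kb from a start, and they carry the names of 2283 genes. Single regions were taken by that annotation alone, without use of their measured values, though earlier results of these data were known when the class was chosen. Each was compared with the strongest region within 1 kb of a start of the same gene, which is called the core region here. Such a core region existed for 3479 flanking regions in 1999 genes, while 392 flanking regions in 284 genes had none.

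Acetylation of histone H3 at lysine 27 (H3K27ac) was measured by chromatin immunoprecipitation in regenerating mouse liver. All mice carried a Cox10-floxed allele, and an AAV8 virus delivered either GFP (wild type) or Cre (Cox10-/-) by injection behind the eye. A 70% partial hepatectomy followed 4 weeks later, and liver was collected on day 2 after it, with 3 H3K27ac libraries per genotype. Cox10 encodes an enzyme of heme A synthesis, which cytochrome c oxidase needs to assemble. The labels name no promoter driving Cre and do not say that each library came from its own animal, so p-values measure the spread between libraries, which may be technical. The tissue is whole liver, in which fewer cells carrying the mark and less mark per cell cannot be told apart.

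Nucleosomes beside active start sites and at enhancers are acetylated at lysine 27 by p300 and CBP, and deacetylases remove the mark. The start itself is often free of nucleosomes, and the mark then lies on the nucleosomes to either side of it. At strongly transcribed genes of cell identity the acetylated stretch can reach well past the first nucleosomes, so that flanking regions are seen. A gene with several annotated starts can hold a flanking region at each of them.

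The regions held between 3282878 and 4187377 reads in a library. Values are normalised reads, the count of reads in a region divided by 1 size factor per library, and changes are differences of log2(value + 1), Cox10-/- minus wild type. In pairs of libraries of the same genotype, chi-square per degree of freedom ranged from 1.06 to 1.19, against 10.2 to 10.6 between genotypes. Hepatocyte markers were present among the flanking regions, with 15 regions in 10 of 12 marker genes.

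Few flanking regions hold a start site, as regions at the start of their own gene belong to the class within 1 kb. Of the 3871 regions, 30 contained a start listed by RefSeq (assembly GRCm38.p6), and 10 contained a whole window from 250 bases before to 50 bases after a start. In all 10 the gene that starts there was not the gene whose name the region carries, which the choice of regions largely fixed in advance. Of these 10 regions, 9 fell and 1 was not called, beside 87.2% lower among all regions. Their median change was -0.87, against -1.04 over all regions. The 250 bases before the start of Fbrs lie at chr7:127478708-127478957 (plus strand) inside a flanking region named after Prr14. This region went from 488.1 ± 46.3 to 278.7 ± 14.7 normalised reads (SD, n = 3). The 250 bases before the start of Lncppara, a noncoding RNA gene, lie at chr15:85703523-85703772 (plus strand) inside a region named after the microRNA gene Mirlet7c-2, which went from 221.0 ± 18.9 to 114.3 ± 6.18. They are shown because each of these regions is a flank of 1 gene and the promoter of another. Capitals mark CG dinucleotides.
Fbrs: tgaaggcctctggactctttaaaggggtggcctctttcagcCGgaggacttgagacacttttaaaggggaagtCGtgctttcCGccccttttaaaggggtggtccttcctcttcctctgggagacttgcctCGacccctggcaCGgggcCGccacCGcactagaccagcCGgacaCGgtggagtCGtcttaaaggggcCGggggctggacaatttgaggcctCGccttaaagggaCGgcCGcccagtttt
Lncppara: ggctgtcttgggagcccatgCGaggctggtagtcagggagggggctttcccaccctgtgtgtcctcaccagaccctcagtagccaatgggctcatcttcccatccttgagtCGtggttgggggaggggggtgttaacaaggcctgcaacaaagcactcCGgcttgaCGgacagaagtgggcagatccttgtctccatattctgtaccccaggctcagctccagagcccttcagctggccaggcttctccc
The Fbrs sequence holds 14 CG dinucleotides, and its whole window of 300 bases holds 19. That of Lncppara holds 4, with none added by the whole window. Over the 32851 RefSeq windows of 300 bases the median was 7 (interquartile range 3 to 20). Neither window held TATAAA or TGANTCA on either strand, which occurred in 13.6% and 7.81% of all windows.

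The kinase gene Pdk4, whose product switches off pyruvate dehydrogenase, lay on the other side of the comparison. Among flanks at or above the median level and outside predicted genes it had the highest rise. The 250 bases before its RefSeq start lie at chr6:5496279-5496528 (minus strand). Its core region begins further upstream, and its flanking region begins 2897 bases upstream of the start. The stretch is shown because both acetylated regions rose and neither overlaps it.
Pdk4: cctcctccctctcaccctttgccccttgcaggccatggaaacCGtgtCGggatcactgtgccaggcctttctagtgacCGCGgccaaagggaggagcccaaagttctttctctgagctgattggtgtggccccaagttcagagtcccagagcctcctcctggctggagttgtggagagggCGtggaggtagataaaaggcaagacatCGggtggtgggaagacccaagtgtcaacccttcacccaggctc
It holds 6 CG dinucleotides, and its whole window holds neither TATAAA nor TGANTCA.

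Among the flanking regions, 12 belong to 9 microRNA genes, of which 11 fell and 1 rose, beside 87.2% and 4.46% of all regions. MicroRNAs are short RNAs that pair with target messenger RNAs mainly through bases 2 to 8, the seed, given here in capitals. The mature sequences from RefSeq show which molecules these flanks stand beside.
mmu-miR-193a-3p: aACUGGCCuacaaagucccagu
mmu-miR-365-3p: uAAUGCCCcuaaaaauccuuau
mmu-let-7c-5p: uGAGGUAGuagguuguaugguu
mmu-miR-99b-5p: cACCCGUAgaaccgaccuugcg
mmu-miR-148a-3p: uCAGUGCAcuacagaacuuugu
mmu-miR-680: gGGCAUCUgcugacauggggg
No seed is shared among these 6. The Mir193a region at chr11:79713469-79713925, which begins 1435 bases from the hairpin, held 101.1, 91.8 and 103.5 normalised reads in wild type and 18.7, 23.4 and 22.0 in Cox10-/-. The neighbouring Mir365-2 region fell 4.46-fold (log2 -2.16, SE 0.22, limma adjusted p = 6.0e-19), and both genes lie on chromosome 11. Beside Mir148a, a microRNA abundant in hepatocytes, the 2 regions fell by 1.48 and 1.75 on the log2 scale, less than its core region, which fell by 2.40. The Mir680-3 region was at 2.66, 1.37 and 1.28 in wild type and at 27.7 ± 2.80 (SD, n = 3) in Cox10-/-. All 3 Cox10-/- values lie above the wild-type ones, which correspond to 1 or 2 reads each. Members of the miR-680 family are near-identical copies, so reads could be shared between them.

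Most flanking regions lost H3K27ac without Cox10. In Cox10-/-, 3351 of 3871 fell (86.6%), 170 rose (4.39%) and 350 were not called (limma, Benjamini-Hochberg adjusted p under 0.05 over all regions). Over all 36387 regions 87.2% fell and 4.46% rose, so the shares among flanking regions were those of the table at large. All 3 Cox10-/- libraries lay below all 3 wild-type libraries in 3333 flanking regions and above them in 173, against 86.4% and 4.44% of all regions. The size of the change was larger: the median was -1.34 (interquartile range -1.84 to -0.80), a 2.54-fold loss, against -1.04 over all regions and -0.87 at 15980 regions within 1 kb. It was close to the medians of first introns (-1.25), later introns (-1.30), distal intergenic regions (-1.23) and exonic, untranslated or gene-end regions (-1.34). The authors' deposited table gives 3267 flanking regions lower and 136 higher, with a median of -1.34.

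The balance of directions depends on the scale. Centring each library on its median region moves every change up by 1.05. Then 1759 flanking regions were lower and 863 higher, with a median of -0.29, against 32.4% lower and 33.6% higher among all regions.

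The bands at 1 to 2 kb and 2 to 3 kb had similar values. The median value of 1 to 2 kb regions was 79.8, 79.4 and 79.2 with Cox10 present and 35.7, 33.9 and 31.8 without it. For 2 to 3 kb regions it was 85.1, 83.5 and 83.1 in wild type and 37.4, 35.5 and 32.6 in Cox10-/-. In both bands the genotypes did not overlap. The median change was -1.34 at 1 to 2 kb and -1.35 at 2 to 3 kb, with 87.0% and 85.9% lower and 3.92% and 5.03% higher. Regions inside the RefSeq span of their gene (2906) and outside it (832) had medians of -1.35 and -1.32.

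**Figure D1:**
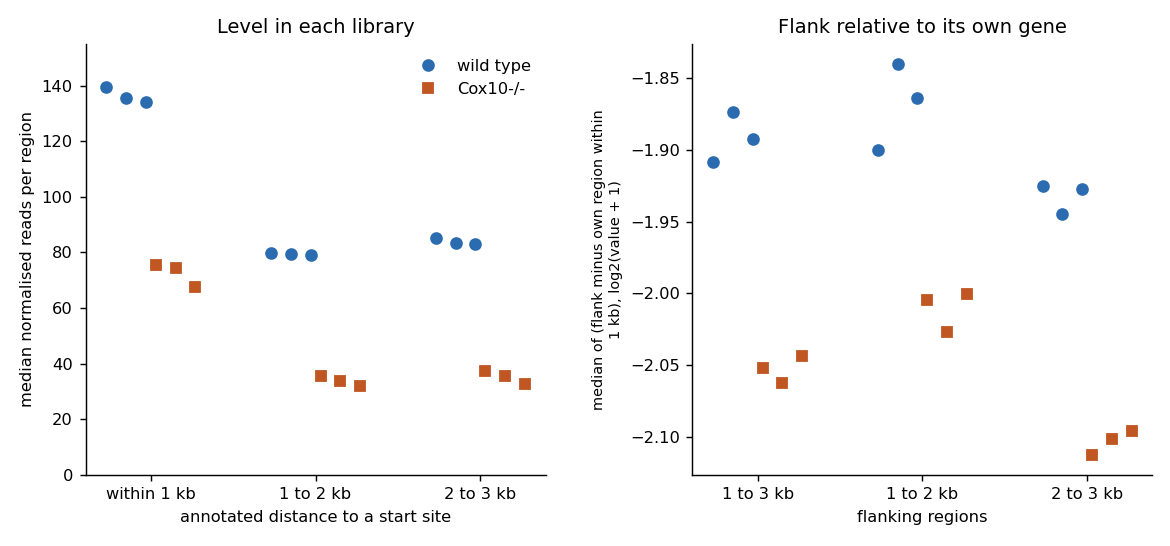
Left, median normalised reads per region in each of the 3 wild-type (circles) and 3 Cox10-/- (squares) libraries, for regions within 1 kb, 1 to 2 kb and 2 to 3 kb from a start, on an axis that starts at 0. Right, median over pairs of the flanking region minus its core region, on the log2(value + 1) scale, on an axis that does not start at 0: wild-type libraries lie between -1.91 and -1.87 for all 3479 pairs and Cox10-/- libraries between -2.06 and -2.04.

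Flanking regions are weaker than core regions, so the comparison was repeated at matched level. All regions were divided into 4 level classes of equal size by their mean value. The median change of flanking regions was -1.40, -1.34, -1.37 and -1.22 from the weakest to the strongest class. That of regions within 1 kb was -1.05, -0.91, -0.85 and -0.84. Flanking regions had the lower median in all 4 classes.

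Genes that have a flanking region also differed at the core. Their strongest region within 1 kb had a median change of -1.04 (1999 genes), against -0.79 in 7664 genes without a flanking region. These core regions were wider, with a median of 1057 against 586.5 bp, and stronger, with a median wild-type value of 323.7 against 160.4. At matched level the gap remained: the medians were -1.06, -1.04, -1.07 and -1.02 with a flank and -0.82, -0.79, -0.77 and -0.79 without, from the weakest to the strongest class. The part of width and of the kind of gene in this difference was not tested.

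**Figure D2:**
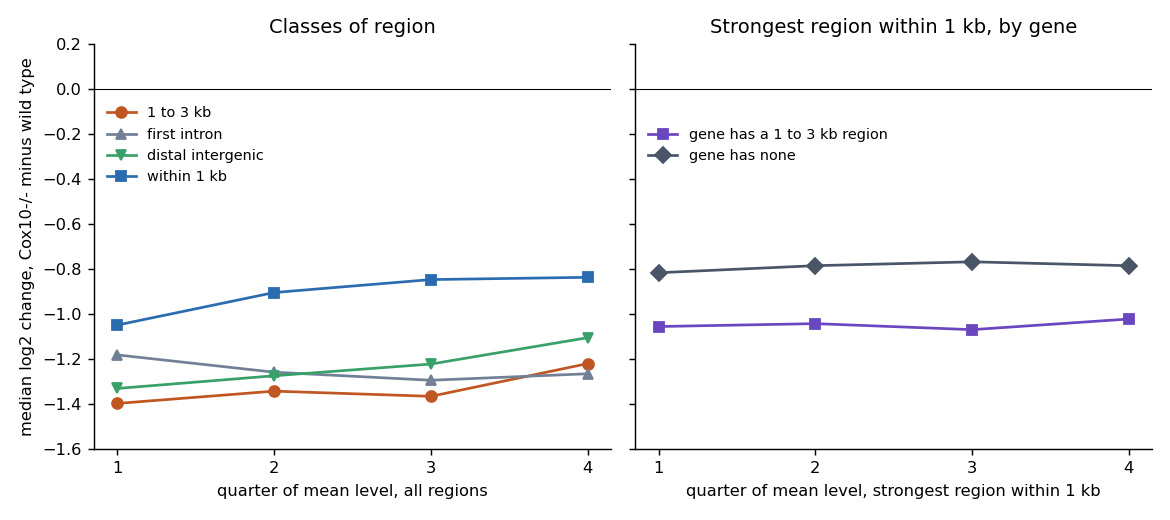
Median log2 change (Cox10-/- minus wild type, deposited scale) in 4 classes of mean level (1 the weakest, 4 the strongest), for classes of region (left) and for the strongest region within 1 kb of genes with and without a 1 to 3 kb region (right). Flanking regions lie from -1.40 to -1.22 and regions within 1 kb from -1.05 to -0.84, and genes with a flank lie below those without in all 4 classes. First introns and distal intergenic regions are drawn too and lie near the flanks. Centring the libraries would move all points up by 1.05.

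Set against the core region of the same gene, the flank changed by only a little more. The per-library difference between the log2 values of a flanking region and its core region depends on library scaling only through the 1 added to each value. Its median over 3479 pairs came to -1.91, -1.87 and -1.89 with Cox10 and to -2.05, -2.06 and -2.04 without it. The genotypes did not overlap, and the median change of the difference was -0.17 (interquartile range -0.59 to 0.24), or -0.091 with a pseudocount of 5. Relative to the core region, 1079 flanking regions were lower (31.01%), 548 were higher (15.8%) and 1852 were not called (limma, adjusted over 16158 pairs of any non-core region with a core region). Over all those pairs 33.1% were lower and 22.4% higher, with a median of -0.14, and neither the shares nor the medians were tested against each other. First introns had a median difference of -0.12, later introns of -0.16 and exonic, untranslated or gene-end regions of -0.23.

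The 2 regions of a gene changed together to a degree. Across the 3479 pairs, changes of flank and core had a Pearson correlation of 0.57 and a Spearman correlation of 0.55, and 0.58 (Pearson) with 1 flanking region per gene. This is a description across regions of the same 6 libraries, with several flanks sharing a core. Both regions fell in 2988 pairs. Of the 142 rising flanks with a core region, 98 stood beside a core that fell, 17 beside a core that rose and 27 beside a core that was not called. Among all 1999 core regions 95.8% fell and 0.90% rose, so a falling core was less frequent beside rising flanks, without a test. The median change of the core regions of the 142 rising flanks was -0.50. These calls and changes are on the deposited scale. Centring moves every change up by 1.05, so the direction of many of these cores depends on the scale.

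**Figure D3:**
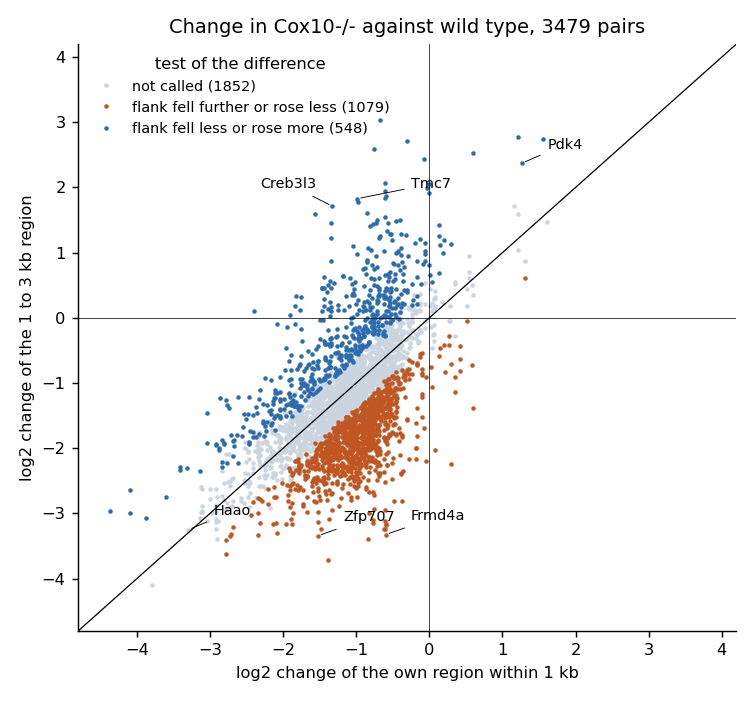
Each point is 1 of 3479 flanking regions, with the log2 change of its core region on the x axis and its own log2 change on the y axis, on the deposited scale, and the diagonal marks equal change. Points below the diagonal in orange (1079) fell further or rose less than the core and points above it in blue (548) fell less or rose more, by the limma test of the difference. Most points lie in the lower left, where both regions are lower.

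The shares called are given by distance between the 2 regions, without a test. Of flanks under 500 bp from their core region, 25.5% were relatively lower and 7.42% relatively higher. At 5000 bp or more these shares were 36.1% and 23.8%. The median difference stayed between -0.18 and -0.12 over the 4 distance classes. In 294 pairs (8.45%) the flank was stronger than the core, and there the median difference was -0.09.

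The deepest falls among well acetylated flanks were about 10-fold, and they came with and without an equal fall at the core. The Haao region at chr17:83843072-83845594 held 701, 663 and 744 normalised reads in wild type and 79.9, 86.4 and 56.1 in Cox10-/-. Haao encodes an enzyme of the path from tryptophan to NAD. The flank fell 9.51-fold (log2 -3.25, SE 0.10, limma adjusted p = 4.4e-80), the core fell by 3.30 on the log2 scale, and their difference of 0.05 was not called (adjusted p = 0.86). At S1pr5, a receptor for sphingosine 1-phosphate, the flank was at 106.4, 105.5 and 124.0 in wild type and 9.35, 10.5 and 9.09 in Cox10-/-. It fell 10.6-fold, and further than its core by 0.62 on the log2 scale (adjusted p = 0.0098). Neither gene's flank had overlapping genotypes, which their choice by size of change largely fixed in advance.

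Other deep falls stood beside a core that changed far less. The flank of Zfp707, a zinc finger gene, at chr15:75965839-75966869 held 323, 299 and 303 normalised reads in wild type and 31.4, 27.4 and 29.5 in Cox10-/-. It fell by 3.34 on the log2 scale and its core by 1.52, a difference of -1.82 (SE 0.17, limma adjusted p = 1.5e-05). Klhdc7a, which encodes a kelch domain protein, had 367, 393 and 355 against 39.9, 33.9 and 41.7 at its flank. The genotypes were again apart, with a flank change of -3.24 beside a core change of -1.48. Frmd4a, Xpot, Arid2, Prkce, Macf1 and Trpc4ap were the most divergent falls by size. Their core regions lie between 9035 and 404348 bp away, at another start, and changed by -0.37 to -0.78. Against the nearest core region the differences at Xpot and Arid2 shrank from -2.43 and -2.33 to -1.38 and -0.94. On the same measure the Trpc4ap flank differed by 0.22 (adjusted p = 0.30) and that of Prkce by -0.22 (adjusted p = 0.34), both not called. Serpina1b, an alpha-1-antitrypsin gene with near-identical copies that may share reads, had a flank that fell 9.47-fold.

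Among the rising flanks chosen by size, Pdk4 came first. Its flank at chr6:5499175-5500655 held 29.3, 63.0 and 51.1 normalised reads in wild type and 235.4, 252.6 and 232.6 in Cox10-/-. Its core region held 133.0, 142.4 and 138.0 in wild type and 362.9, 349.5 and 290.2 in Cox10-/-. Both regions rose with no overlap, the flank by 2.37 and the core by 1.27 on the log2 scale, and the flank rose further by 1.11 (SE 0.23, limma adjusted p = 0.0020). In wild type the flank was weaker than the core, and it remained so without Cox10.

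On the deposited scale, the other leading rises were smaller and mostly had no rising core. Centring the libraries moves every change up by 1.05, more than the fall of any core given here. Slc48a1 encodes a heme transporter. Its 2 flanks held 47.9, 27.4 and 32.0 and then 35.9, 41.1 and 43.5 in wild type, and 97.7, 94.4 and 93.2 and then 113.0, 93.6 and 85.6 in Cox10-/-. They rose by 1.43 and 1.25, while the core changed by 0.14. Tmc7, of the transmembrane channel-like family, went from 41.2, 27.4 and 23.0 to 103.7, 113.8 and 106.1. Its core, which is also the nearest, changed by -0.99 and lies 48551 bp away. Trim41, a ubiquitin ligase gene, had 2 flanks that rose by 1.28 and 0.70 beside a core change of -0.54. The methyltransferase-like gene Mettl27 had 3 that rose by 0.96 to 1.29. Its core changed by -0.39 and lies 10261 bp from the flank that rose by 1.29. The genotypes did not overlap in any of these flanks, which the choice of genes by size of change largely fixed in advance. At Dlgap1, a scaffold protein gene of synapses, flank and core rose alike (1.47 and 1.61).

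On the deposited scale, some flanks rose beside a strongest core that fell. At Sel1l, a gene for degradation of misfolded proteins of the endoplasmic reticulum, the 2 to 3 kb flank went from 87.8, 76.7 and 74.1 to 120.7, 125.9 and 121.2 while the core changed by -1.43. The 1 to 2 kb flank of the same gene fell by 1.33, so direction changed within 1 gene. Agap1 (1.26 beside -0.68), Rxra (0.45 beside -1.47) and Serpina3n (0.45 beside -1.43) also differed in direction from their core on this scale. Centring moves every change up by 1.05, which exceeds the fall of the Agap1 core but not those of Sel1l, Rxra and Serpina3n. The Rxra core lies 31253 bp away, and against the nearest core region the difference was 0.61 in place of 1.92. At Sec14l2 the flank was not called (0.04) while the core, 20216 bp away, fell by 1.91. The difference there was 1.95, and 0.996 against the core region 347 bp away.

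**Figure D4:**
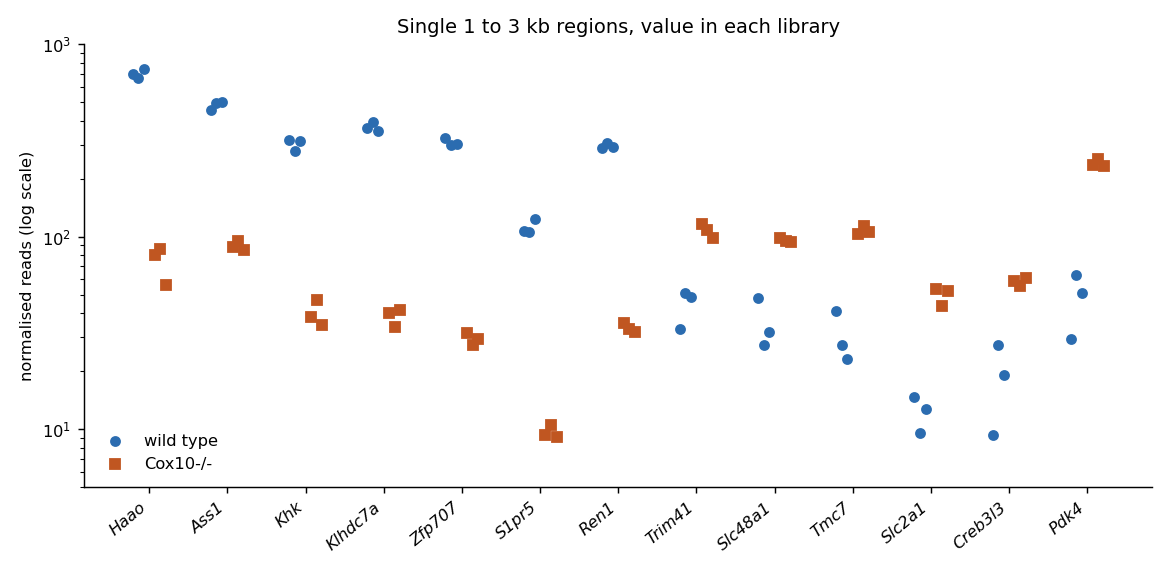
Normalised reads of 13 flanking regions, 1 per gene, in each wild-type (circles) and Cox10-/- (squares) library, on a log axis. For Slc2a1 the flank that rose by 1.94 is drawn. The 7 regions from Haao to Ren1 are lower in all 3 Cox10-/- libraries, and the 6 from Trim41 to Pdk4 are higher in all 3. They were chosen by their values in these libraries, which largely fixed this separation in advance. Of all regions, 86.4% had all 3 Cox10-/- libraries below all 3 wild-type libraries and 4.44% above.

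Most genes with several flanks had all of them lower, in a set where 86.6% of all flanks fell. Of 984 genes with at least 2 flanking regions, 785 had all of them lower, 15 had all higher and 36 had at least 1 of each. These counts largely follow the common fall and were not tested against it. In these 984 genes the pooled SD of changes within a gene was 0.49. Over all flanking regions, including those of genes with a single flank, the SD was 0.88, so the 2 values rest on different sets. Shb, an adaptor protein gene, and Rara, the retinoic acid receptor alpha gene, had 9 flanks each, with changes from -1.72 to -0.86 and from -1.24 to 0.24. All 9 Shb flanks fell, and 6 of the 9 Rara flanks did. Ppara, the fatty acid sensor of hepatocytes, had 8 flanks, which all fell. Genes with both directions that spanned a wide range included Plekha7, Bcar3, Creb3l3 and Slc39a14, named after their values were seen.

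Nearly all flanks of genes for hepatocyte functions fell on the deposited scale. Of all 11240 genes with a region, 20.3% had a flanking region, against 24 of 32 genes for the urea cycle and the breakdown of amino acids, 73.0% of hepatocyte transcription factors, 70.0% of bile acid genes and 67.4% of genes for secreted hepatocyte proteins. All 40 urea cycle and amino acid flanks fell on the deposited scale, and 36 were lower and 1 higher with centred libraries. Among all flanks 86.6% fell on the deposited scale, and 45.4% were lower and 22.3% higher with centred libraries, a difference that was not tested. Relative to their core regions, 4 were lower and 4 higher, with a median difference of -0.10. All 28 bile acid flanks and 52 of 53 secreted protein flanks fell too (21 and 41 lower with centred libraries), and relative to the core 2 and 7 were lower and 4 and 13 higher. Ass1, which makes argininosuccinate in the urea cycle, had a flank at 456, 493 and 498 in wild type and 88.4, 94.4 and 84.9 in Cox10-/-. It fell by 2.42, further than its core by 0.75 (limma adjusted p = 8.5e-04). Nags, which makes the activator of the urea cycle, had 2 flanks, with changes of -2.35 and -3.07 beside a core change of -3.13. The first differed from its strongest core by 0.79 and from the nearest by 0.29, which was not called (limma adjusted p = 0.32).

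Transcription factor genes of hepatocytes held 63 flanks, of which 58 fell and 2 rose (36 and 7 with centred libraries). Relative to the core, 14 were lower and 9 higher, but 7 and 10 with the nearest core region. The flank of Nfix fell by 3.09 beside a core change of -1.37. Creb3l3 encodes CREBH, a factor of the fasting liver. Its flank at chr10:81095731-81096173 was at 9.31, 27.4 and 19.2 in wild type and 58.6, 55.7 and 60.6 in Cox10-/-, and it rose by 1.71 while the core changed by -1.33. The difference was 3.04, and 2.22 with the nearest core region. The other Creb3l3 flank fell by 1.73.

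Genes of sugar metabolism fell at most flanks. Of 16 gluconeogenesis flanks, 15 fell and 1 rose, that of Creb3l3, and 7 were lower and 4 higher relative to the core (median difference -0.35). With the nearest core region the counts were 4 and 2 and the median -0.007. Pck1 and G6pc, for key steps of glucose release, had 2 flanks each that fell by 1.93 and 2.53 and by 1.24 and 2.41, and in each gene 1 flank fell less than the core. With the nearest core region neither was called (Pck1 0.44, G6pc 0.35). Of 19 glycolysis flanks 16 fell and 2 rose (10 and 4 with centred libraries), and 4 were lower and 4 higher relative to the core. Khk, which phosphorylates fructose, had a flank that fell 7.45-fold. Slc2a1 encodes the glucose transporter GLUT1, and its 2 flanks rose. The flank at chr4:119105416-119105785 held 14.6, 9.59 and 12.8 in wild type and 53.5, 43.6 and 52.3 in Cox10-/-, and the other held 12.0, 12.3 and 5.11 against 36.5, 42.8 and 46.2. They rose by 1.94 and 2.07, while the core, at 129.0, 115.0 and 129.1 against 85.0, 90.4 and 68.9, changed by -0.61. Ldha, for lactate dehydrogenase A, had 7 flanks, all lower, with changes from -2.36 to -1.11.

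Lipid genes gave the list that lay furthest from its core regions. Of 14 flanks of cholesterol synthesis and LDL uptake genes, 13 fell and 1 rose (12 and 1 with centred libraries). Relative to the core, 9 of 12 were lower and 1 higher, with a median difference of -1.004, against -0.17 over all flanks. With the nearest core region the counts were 7 and 1 and the median -0.77. These 12 regions lie in 6 genes and share core regions. At Sc5d, for a late step of sterol synthesis, 3 flanks fell by 2.26 to 2.55 beside a core change of -1.27. At Dhcr7 the flank fell by 2.01 beside -0.84, and at Insig1, which holds back sterol regulators in the endoplasmic reticulum, by 2.23 beside -0.97. Against the nearest core region the Insig1 difference went from -1.26 to 0.11 and was not called. Fatty acid synthesis flanks were 32 lower and 3 higher of 37 (16 and 9 with centred libraries), and relative to the core 7 were lower and 5 higher. In fatty acid oxidation, 31 of 34 fell and 1, that of Pdk4, rose (9 and 8 with centred libraries), and relative to the core 8 were lower and 5 higher (5 and 6 with the nearest core region).

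Respiratory chain genes seldom had flanks. Of 69 genes with a region, 10.1% had a flanking region, and for the mitochondrial ribosome the share was 9.38% of 64. All 9 respiratory chain flanks fell (7 lower and 0 higher with centred libraries), and 6 were lower and 0 higher relative to the core, with a median difference of -0.77. With the nearest core region 4 were lower and 0 higher, with a median of -0.396. At Sdhd, a subunit of complex II, 2 flanks fell by 1.93 and 2.29 beside a core change of -1.36, and at Sdhb by 1.82 beside -0.93. Atp5b, of the ATP synthase, had a flank change of -1.49 and Coa7, a cytochrome c oxidase assembly factor, one of -2.13, beside core changes of -0.72 and -0.82. Against the nearest core region the differences at Sdhb (0.03) and Coa7 (-0.40) were not called.

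**Figure D5:**
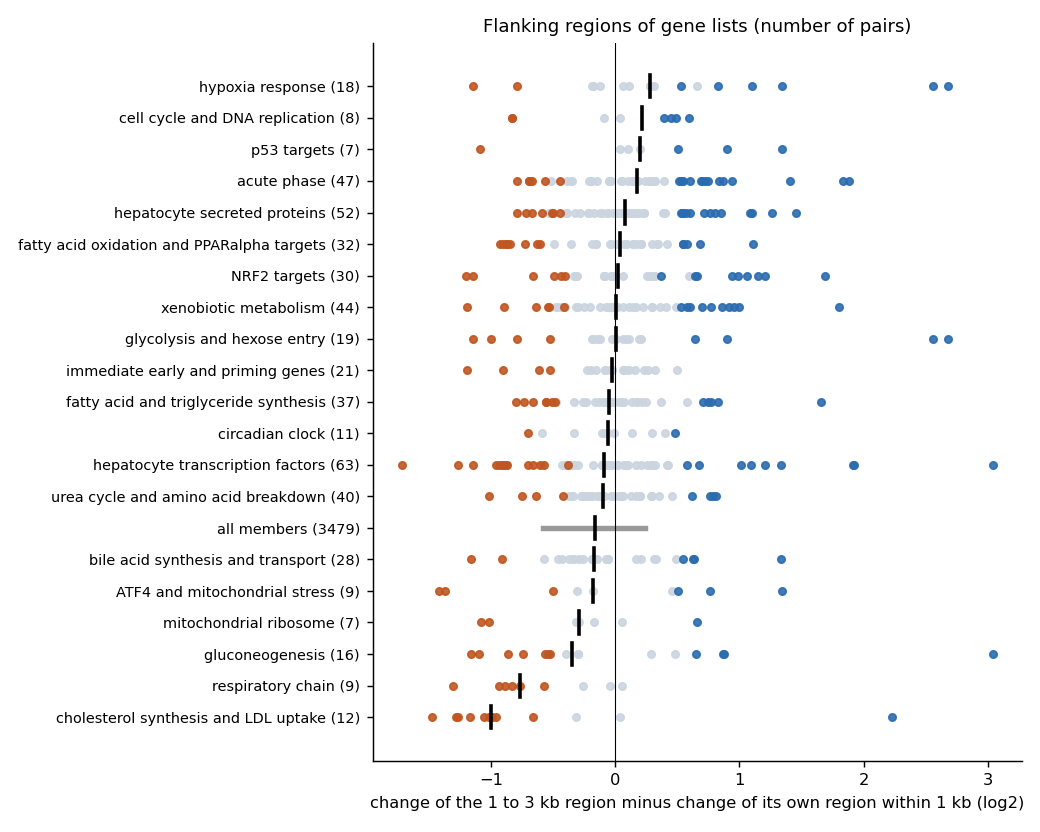
For each gene list with at least 7 pairs, points give the log2 change of each flanking region minus that of its core region, a difference that library scaling moves only through the 1 added to each value. Orange and blue points were called lower and higher, grey points were not called, vertical bars are medians, and the grey band of all members spans the interquartile range from -0.59 to 0.24. Cholesterol synthesis (-1.004) and the respiratory chain (-0.77) lie furthest to the left (-0.77 and -0.396 with the nearest core region) and the hypoxia response (0.28) furthest to the right.

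Stress and signalling genes showed both directions. NRF2 targets had 30 flanks, with 18 lower and 4 higher on the deposited scale but 3 lower and 19 higher with centred libraries, and relative to the core 6 were lower and 9 higher. Abcc3, an exporter of conjugated bile acids, had 5 flanks, of which 2 rose, the stronger from 166.3, 184.9 and 177.7 to 334.8, 331.7 and 303.8. The strongest Abcc3 core changed by -0.06 and lies 25792 bp from the weaker of the 2 rising flanks. Nfe2l2, for NRF2 itself, had a flank that rose by 0.57 and 2 that fell. The rising flank differed by 1.06 from the strongest core and by 0.01 from the nearest. Hypoxia response flanks were 13 lower and 3 higher of 19 (3 and 8 with centred libraries), and relative to the core 2 were lower and 6 higher. The 3 that rose belong to Slc2a1 and Ddit4. In the ATF4 list 7 of 10 fell and 3 rose (3 and 4 with centred libraries). Ddit4, an inhibitor of mTORC1, rose from 20.7 ± 5.77 to 46.3 ± 5.47 (SD, n = 3), and Eif4ebp1, a brake on translation, rose by 0.42 beside a core change of -0.35. Sqstm1, an autophagy receptor gene, had 3 flanks that fell, by up to 2.09 beside -0.67 at its strongest core region. Another of the 3, at chr11:50201276-50201575, fell by 2.04 and lies 8215 bp from that core region. Against the nearest core region that flank's difference went from -1.37 to -0.21 (limma adjusted p = 0.56, not called), and in the ATF4 list 1 flank in place of 3 was then relatively lower.

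Genes of early regeneration and of the cell cycle came next. Immediate early and priming genes had 22 flanks, of which 19 fell and 3 were not called. With centred libraries 5 were lower and 8 higher. Relative to the core 4 of 21 were lower and 0 higher (1 higher with the nearest core region), with a median difference of -0.03. Those 4 lie at Stat3, Il6ra (2 regions), which carry the interleukin 6 signal, and Gadd45g. Zfp36l1, which encodes a protein that destabilises messenger RNA, had a flank among the strongest in wild type, at 925, 886 and 873, against 527, 494 and 520 in Cox10-/-. It fell by 0.80 on the deposited scale and turned to 0.25 with centred libraries. Cell cycle genes had 8 flanks, of which 7 fell and 1 was not called (3 lower and 2 higher with centred libraries). Relative to the core 4 were higher, in Ccnd1, Ccnd3 (2 regions) and Cdk6, and 2 were lower, in E2f3 and Rb1. With the nearest core region these counts were 1 and 0.

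Acute phase genes, made by the liver in inflammation, had 47 flanks, of which 42 fell and 3 rose (22 and 8 with centred libraries). Relative to the core 15 were higher and 6 lower, with a median difference of 0.17, but with the nearest core region 7 were higher and 9 lower. The 3 rising flanks belong to Orm1 (2 regions) and Serpina3n, in families with near-identical copies that may share reads. Fga, for the alpha chain of fibrinogen, had a flank at 398, 377 and 371 in wild type and 79.0, 115.4 and 78.8 in Cox10-/-. It fell further than its core by 0.79 (limma adjusted p = 0.0028). Clock genes had 11 flanks, which all fell on the deposited scale, while 1 was lower and 3 higher with centred libraries. Targets of p53 had 3 flanks lower and 2 higher of 7 (1 and 4 with centred libraries), and relative to the core 1, that of Bax, was lower and 3 higher. Xenobiotic metabolism had 47 flanks, with 43 lower and 4 not called (22 and 7 with centred libraries), and relative to the core 6 were lower and 10 higher.

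Of the 392 flanks without any region within 1 kb, 317 fell (80.9%) and 28 rose (7.14%), with a median change of -1.24. Over all regions 87.2% fell and 4.46% rose. These 392 flanks were weaker than those with a core region, with a median value of 48.8 against 59.2. Among all flanks under the median level 81.9% fell and 6.25% rose, and the part of level was not tested. The deepest fall of the 392 at or above the median level and outside predicted genes was at Ren1, the renin gene. A flank there at 290, 305 and 291 in wild type stood at 35.7, 33.1 and 31.8 in Cox10-/-. The other 2 Ren1 flanks fell by 1.56 and 1.64. Aoc1, for diamine oxidase, and Tmem54 had flanks with changes of -2.98 and -2.93. At or above the median level and outside predicted genes, the 3 leading rises were Bnip5 by 0.60, the noncoding RNA gene Bvht by 0.58 and Ecm1, of the extracellular matrix, by 0.45. Bnip5 held 53.2, 31.5 and 53.7 in wild type and 79.9, 68.6 and 58.3 in Cox10-/-, which do not overlap. The call at Bnip5 was lost without wild-type library 2, and that at Ecm1 without Cox10-/- library 1.

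Marker genes of other liver cells had few flanks. Macrophage and Kupffer cell markers had 3, of which Cd68 rose from 37.2, 49.3 and 55.0 to 97.7, 77.5 and 75.8, while Cx3cr1 and Spi1 fell by 0.78 and 0.95. Summed over the 3, the level ran from 154.3 to 164.3 with Cox10 and from 129.1 to 175.9 without it, which overlap. Endothelial flanks at Pecam1 and Stab1 were not called, with sums of 119.2 to 144.4 and 110.6 to 121.5. The 2 stellate flanks, both of Tagln, fell, their sums being 405.4 to 427.0 with Cox10 and 85.6 to 118.1 without. Biliary, lymphocyte and neutrophil markers had 0 flanks. All 15 hepatocyte flanks fell, with sums of 2141 to 2154 against 539.4 to 583.5. With centred libraries 0 macrophage flanks were lower and 1 was higher, so Cx3cr1 and Spi1 were no longer called lower. Both endothelial flanks were then higher. The 2 stellate flanks and 12 of the 15 hepatocyte flanks were still lower, and 0 were higher. The part of cell composition in the changes was not tested.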

How the data were processed

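H3K27ac was measured in 6 libraries, 3 per genotype, and 6 input libraries are not used here. In 1 table, the authors deposited normalised reads per region (a signal) with their log2 fold changes, p-values, a base mean (a score) and other columns that annotate each region. Each value was a whole number of reads divided by a size factor (0.730 to 0.782 in wild type, 1.18 to 1.32 in Cox10-/-), in 100% of values within 0.01 reads. Per the labels' protocols, spike-in chromatin was added, and the derivation of the size factors from it is not stated there. Per the submitters' processing notes, the tools include MACS, deepTools 3.5.0 and BWA 0.7.5, with build mm10. Of 36446 rows, 59 repeats were dropped. Chromosome 16 was not analysed here.

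Changes were fitted with limma 3.58.1 (R 4.3.3, trend, pseudocount 1, no block) on all 36387 regions, and differences from the core region of highest mean on all 16158 pairs, with Benjamini-Hochberg adjustment and a threshold of 0.05. Adding 1 shrinks the changes of weak regions. Counting error sets the precision of weak regions: a region at 20 normalised reads rests on about as many reads. Both fits were run on simulated data with a common shift and known offsets at some regions, which is simpler than the measured changes. Calls were counted there only for the difference from the core region. Alternatives were other pseudocounts, thresholds and core regions, a replicate block, centred libraries, leaving out each library, and edgeR 4.0.16 and DESeq2 1.42.0 on recovered reads. The members and gene lists were chosen with earlier results of these data known.

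Named regions were the 6 largest changes per direction of a flank, and of its difference from the core, at or above the median level and past the threshold, 1 per gene and without predicted names. Added were 3 per direction without a core, 1 per direction and list by the smallest adjusted p of the difference, and the 2 highest in wild type. Further genes named as examples were chosen after their values were seen. Gene spans came from RefSeq (GRCm38.p6), matched by symbol for 3738 regions (96.6%). RefSeq start windows were found for the genes of 2889 regions (74.6%), so a check of upstream against downstream by strand, or of CG content over all flanks, is void. For 1 gene, single values are not reported here.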

Additional observations from a re-analysis of the deposited data

How the results depend on the processing

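Counts and medians of flanking regions depended mainly on the scale. With centred libraries 1759 were lower and 863 higher (median -0.29), and with edgeR and TMM scaling 1807 and 856 (median -0.31). With 1 region per gene, which tests 2283 regions, 1993 were lower and 103 higher. A pseudocount of 5 gave medians of -1.24 for the change and -0.091 for the difference from the core region, the nearest core region gave a median difference of -0.11, and a threshold of 0.01 left 691 relatively lower. Without each library in turn, 3294 to 3350 regions were lower, 145 to 179 higher, 894 to 963 relatively lower and 463 to 507 relatively higher, with medians of -1.37 to -1.29 and -0.17 to -0.15. Same-numbered libraries did not vary together (correlations -9.2e-04, 0.0074 and 0.0054). This cannot exclude a pairing by number, as the spread within a genotype was near counting error. A replicate block gave 3352 lower and 173 higher, and 1028 and 519 relative to the core. Of 1016 values of named regions under alternatives, 996 kept direction and side of the threshold, 17 lost the call and 3 turned: Trpc4ap to 0.22 with the nearest core region, and Zfp36l1 to 0.25 both with centred libraries and with TMM. Of the 17, 6 came from leaving out a library, at Bnip5, Ecm1, Mrpl48 and Nfil3. Of 681 list medians under alternatives, 274 moved by more than the spread between libraries.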
